A study of Homo sapiens with 4 samples.

Results

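The H3K27ac profile of 5 genes of the BCL2 family was examined in a pair of BCP-ALL cell lines. The genes were BCL2, MCL1 and BCL2L1, which protect cells from apoptosis, and BCL2L11 and BBC3, which promote it. They were chosen by name, and the peaks of a gene were those that overlapped its hg19 gene body, extended by 10 kb on each side, by at least 1 bp. This gave 34 of the 44626 peaks in REH and 48 of the 74504 peaks in 697. REH carries the ETV6/RUNX1 fusion and 697 does not, and both are established human lines of B-cell precursor leukemia for which the labels name no drug treatment. H3K27ac ChIP-seq was performed on 1 library per line, with input DNA of the same line as control, so each line stands for itself and no difference given here has a replicate check or a p-value. The lists name the peaks that the authors called, and the reads and input libraries were not analysed here. After removal of duplicate tags the ChIP libraries held 65241657 tags in REH and 68911420 in 697, so depth was similar. The 697 list covered 1.49 times as many bases as the REH list. Similar depth does not mean similar enrichment. The median fold enrichment over background of all listed peaks was 1.59 in REH and 1.42 in 697. Their median pileup signal was 21.6 in REH and 14.1 in 697. How this bears on the covered bases was not tested.

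Acetylation of lysine 27 on histone H3 marks active promoters and enhancers, and long stretches of the mark often lie over genes that a cell type uses heavily. Proteins of the BCL2 family control the permeability of the outer mitochondrial membrane. The antiapoptotic members hold the effectors BAX and BAK1 in check, and the BH3-only members, among them the products of BCL2L11 (BIM) and BBC3 (PUMA), bind and block the antiapoptotic members. B-lymphoid cells depend on the balance between both sides, and inhibitors of BCL2 are used against lymphoid malignancies.

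The promoters are shown first, because distances are given from the 5′ ends of the genes. RefSeq promoters on GRCh38.p14, from 250 bases before to 50 bases after a transcription start, were found for 4 of the 5 genes, namely BCL2, BCL2L1, BCL2L11 and BBC3. These sequences are on another build than the hg19 peaks, and no position was carried from one to the other. The promoter of BCL2 is at chr18:63319720-63320019 on the minus strand, the first of the 2 of BCL2L1 at chr20:31723914-31724213 on the minus strand, that of BCL2L11 at chr2:111120664-111120963 on the plus strand and that of BBC3 at chr19:47232618-47232917 on the minus strand. Capitals mark matches on either strand to 6 motifs, which do not overlap each other in these sequences. They are the core letters TGTGGT bound by RUNX factors, the letters CCGGAAG typical of sites for ETS factors, the GC box with the letters GGGCGG and the CCAAT box. The remaining pair are the cyclic AMP response element (CRE), searched as TGACGTCA without mismatch, and the element recognised by FOXO factors, searched as TGTTTAC.
BCL2: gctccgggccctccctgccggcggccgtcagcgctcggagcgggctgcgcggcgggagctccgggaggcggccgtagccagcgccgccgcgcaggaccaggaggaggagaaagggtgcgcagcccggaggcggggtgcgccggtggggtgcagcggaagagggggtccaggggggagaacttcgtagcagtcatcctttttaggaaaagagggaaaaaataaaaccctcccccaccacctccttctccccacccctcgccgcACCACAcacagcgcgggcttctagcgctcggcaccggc
BCL2L1: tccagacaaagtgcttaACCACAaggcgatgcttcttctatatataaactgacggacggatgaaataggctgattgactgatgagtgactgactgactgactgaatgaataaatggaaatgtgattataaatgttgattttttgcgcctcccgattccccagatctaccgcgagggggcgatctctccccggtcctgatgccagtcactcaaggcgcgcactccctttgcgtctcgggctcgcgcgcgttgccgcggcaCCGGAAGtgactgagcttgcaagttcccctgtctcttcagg
BCL2L11: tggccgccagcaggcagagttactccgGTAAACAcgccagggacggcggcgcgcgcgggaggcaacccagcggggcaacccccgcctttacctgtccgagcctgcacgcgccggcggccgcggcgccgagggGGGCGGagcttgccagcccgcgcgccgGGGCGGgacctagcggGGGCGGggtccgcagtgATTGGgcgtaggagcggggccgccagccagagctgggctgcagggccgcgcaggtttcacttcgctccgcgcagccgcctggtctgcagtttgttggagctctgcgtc
BBC3: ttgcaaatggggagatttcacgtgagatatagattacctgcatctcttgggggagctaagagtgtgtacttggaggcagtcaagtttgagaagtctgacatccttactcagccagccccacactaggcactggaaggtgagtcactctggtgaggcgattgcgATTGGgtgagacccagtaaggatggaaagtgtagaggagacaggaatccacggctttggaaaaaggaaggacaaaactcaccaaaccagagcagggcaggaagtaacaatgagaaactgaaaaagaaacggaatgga

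The promoters of BCL2 and BCL2L11 were rich in CpG dinucleotides, with 31 and 39 of them and a GC content of 70.7% and 74.7%. The printed promoter of BBC3 was poor in them, with 5 and a GC content of 48.0%. It stands for 1 start only. In GENCODE v44 on GRCh38 the coding transcripts of BBC3 have 2 distinct starts, spread over 1567 bp. The 2 promoters of BCL2L1 lay between, with 20 and 16 CpG dinucleotides and a GC content of 52.0% and 61.3%. Over all 35116 promoters of the table the medians were 14 CpG dinucleotides and 58.7% GC. The RUNX letters were found in BCL2 and in the first promoter of BCL2L1, and they occur in 13.1% of all promoters. The ETS letters were found in the first BCL2L1 promoter only, against 10.3% of all promoters. The BCL2L11 promoter held 3 GC boxes, 1 CCAAT box and 1 FOXO match, and the shares of all promoters with such letters were 45.0%, 34.6% and 3.42%. The second BCL2L1 promoter, which is not printed, held 1 GC box. The BBC3 promoter held 1 CCAAT box. None of the printed promoters held the CRE letters, which occur in 1.85% of all promoters. These matches describe letters and not binding.

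Peaks were present at all 5 genes in both lines, and at each of them more bases lay under peaks in 697 than in REH. The same held for most tiles with peaks in both lines, where a tile is a consecutive stretch of the genome as wide as the gene's window. In 697 more bases were covered in 64.4% of them at the width of BCL2 and in 61.1% at that of MCL1. The percents were 63.7 at the width of BCL2L1, 63.1 at that of BCL2L11 and 61.4 at that of BBC3. The ratio of 697 to REH turned to 0.995 for BCL2 when only peaks with a q-value of at most 5% were kept, and to 0.995 for MCL1 without the flanks. The order of the genes by covered share of the window was the same in both lines from BCL2L1, the highest, to BCL2L11, the lowest, apart from BBC3 and BCL2. The window of BCL2L1 was covered to 28.5% in REH and 55.2% in 697, that of MCL1 to 21.2% and 32.2%, and that of BCL2 to 18.2% and 23.2%. The window of BBC3 was covered to 12.7% and 30.6%, and that of BCL2L11 to 6.83% and 9.61%. The tiles with peaks in both lines had median covered shares between 2.44% and 6.91% in REH and between 3.45% and 9.23% in 697. The 5 genes lay above the median of their own tiles in both lines. Over all 5 windows, 76348 bases were covered in REH and 119190 in 697, a ratio of 1.56 beside 1.49 for the whole lists.

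**Figure D1:**
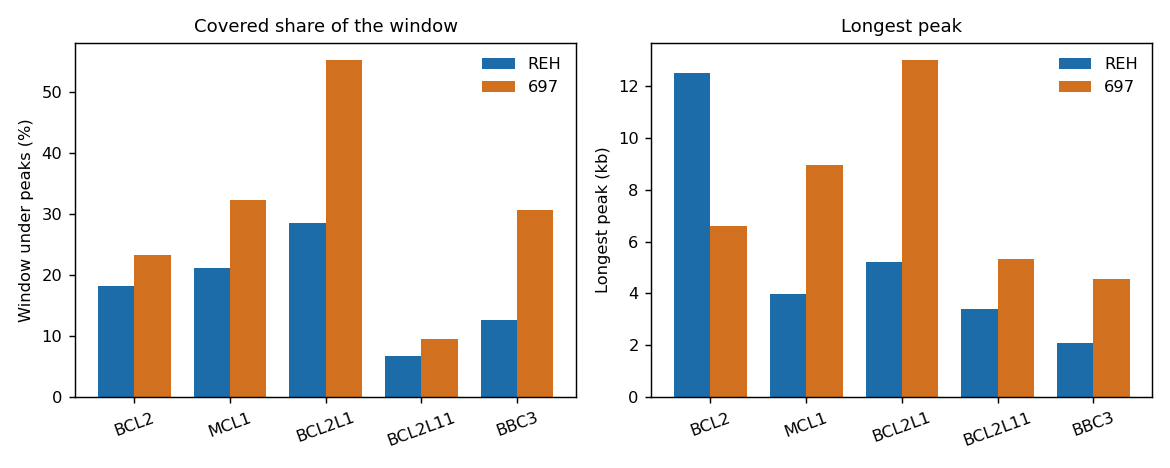
Bars give the percent of each gene's window (body plus 10 kb on each side) under H3K27ac peaks (left) and the length of its longest peak in kb (right), for the single REH and the single 697 library. Lengths are those of whole peaks, which at MCL1 and BBC3 reach past the window. The covered share is higher in 697 at all 5 genes, from 9.61% against 6.83% at BCL2L11 to 55.2% against 28.5% at BCL2L1, while the longest peak as called at BCL2 is the REH peak of 12494 bp.

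A gene was counted as differing between the lines when its covered bases differed at least 2-fold, or when only 1 line had a peak. Only BBC3 met this rule, with more bases in 697. The rule was met by many places in the genome. Among tiles with a peak in either line it was met by 55.4% at the width of BCL2, 67.7% at that of MCL1, 61.5% at that of BCL2L1, 62.4% at that of BCL2L11 and 66.6% at that of BBC3. Among tiles with a peak in both lines, as all 5 genes had, the percents were 41.6, 40.4, 42.3, 42.3 and 41.1 in the same order, and at the width of BBC3 29.5% met it with more bases in 697. A difference of this size was thus common in the genome, and meeting the rule does not by itself set BBC3 apart.

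BCL2 encodes the founding antiapoptotic member of the family and had the largest number of peaks, 17 in REH and 22 in 697. The covered bases were 39450 in REH and 50438 in 697, a ratio of 1.28, close to the median of 1.34 in tiles of its width. Both lines had a peak over the 5′ end of the gene, of 4424 bp in REH (chr18:60984776-60989199) and of 4734 bp in 697 (chr18:60985570-60990303), and 3630 bases lay under both. The remaining peaks lay mostly far from the 5′ end. When the gene body was split at its middle, 3.0% of the bases on the 5′ side were covered in REH and 2.94% in 697, and on the 3′ side 33.0% and 38.2%. The 3′ side held 14 peaks in REH and 18 in 697. In the GENCODE v44 annotation of GRCh38, 1 intron takes up 96.4% of the canonical BCL2 transcript's span. The annotated starts of BCL2 coding transcripts spread over 161890 bp there. Peaks far from the 5′ end used here need not be far from every annotated start.

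In both lines a long stretch of BCL2 between the 5′ end and the distal cluster held no peak. In REH it ran over 100959 bp, between chr18:60881258 and chr18:60982218. In 697 the longest such stretch was 56511 bp, because peaks of 1264 bp (chr18:60913033-60914296) and 202 bp (chr18:60970808-60971009) lay where REH had none. Within the distal cluster REH had its longest BCL2 peak, of 12494 bp (chr18:60802469-60814962), and 99.7% of all REH peaks were shorter. Over the same stretch 697 had separate peaks of 3415 bp (chr18:60804168-60807582) and 4157 bp (chr18:60809625-60813781). The longest 697 peak, of 6605 bp, lay downstream of the gene (chr18:60780560-60787164). BCL2 was the only one of the 5 genes whose longest peak as called was in REH, and with peaks merged within 1000 bp the longest was in 697, at 14688 bp against 12494 bp. It was also the gene with the smallest shared part of its covered REH bases. Of these bases 63.4% lay under 697 peaks, beside 58.5% for the whole lists and between 91.0% and 96.1% for the other 4 genes.

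**Figure D2:**
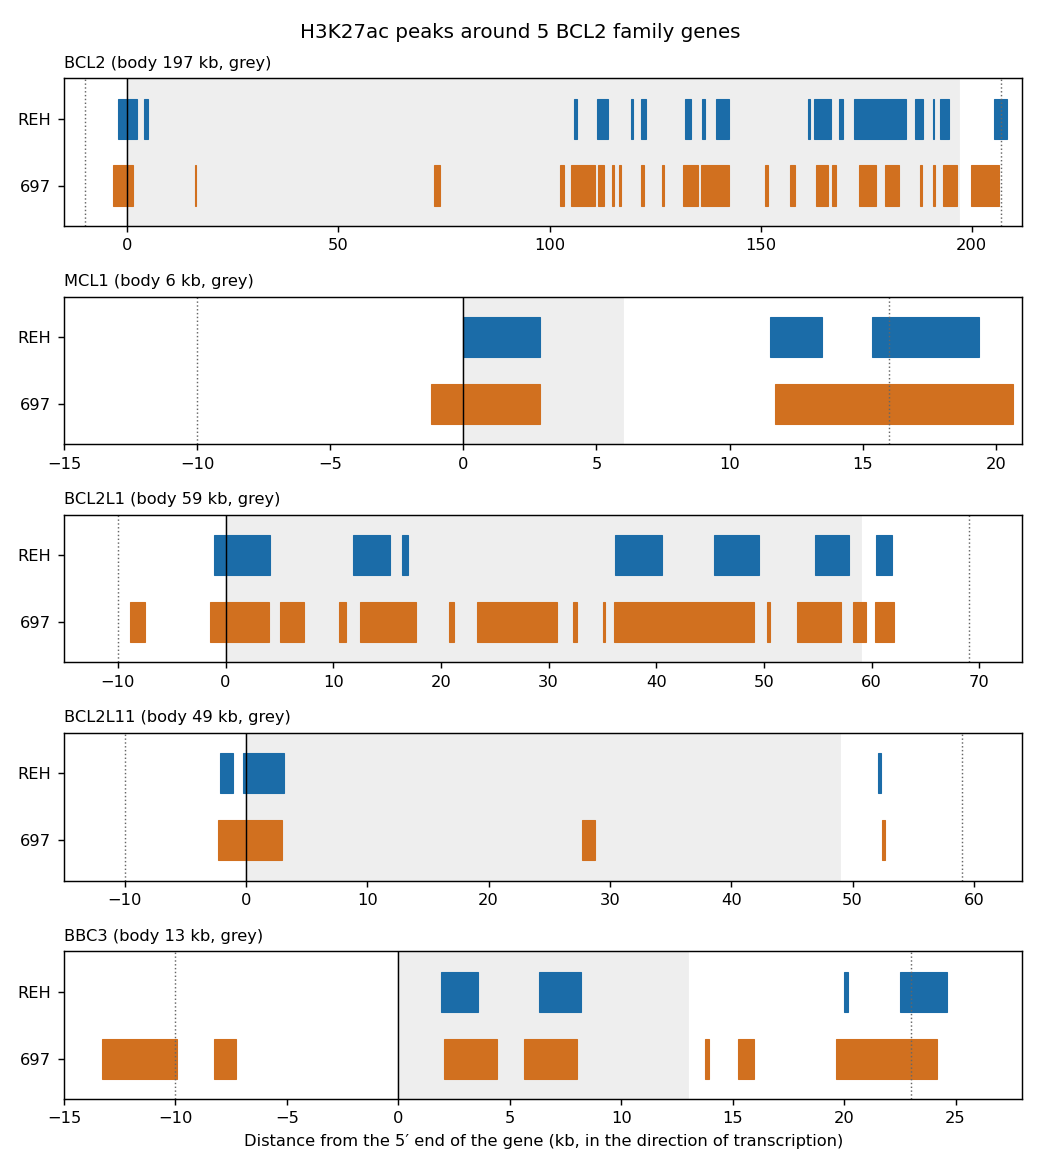
Each panel maps the H3K27ac peaks of REH (blue) and 697 (orange) around 1 gene, against the distance in kb from its 5′ end in the direction of transcription. Grey marks the gene body, the solid line the 5′ end, known to the nearest kb, and the dotted lines the ends of the window. In BCL2 most peaks sit on the 3′ side of the body's middle, 14 in REH and 18 in 697, and in BBC3 the peaks upstream of the gene are in 697 only.

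BCL2L1 encodes BCL-xL, an antiapoptotic protein, and had the highest covered share of the 5 windows in both lines. It held 7 peaks and 22481 covered bases in REH, and 14 peaks and 43641 covered bases in 697. The ratio was 1.94, just under the 2-fold rule, and the median in tiles of its width was 1.29. When peaks within 1000 bp of each other were merged the ratio was 2.01, which would meet the rule. When only peaks with a q-value of at most 5% were kept it was 1.22, with 27461 covered bases in 697. The tile median was not computed for filtered lists, and the q-values may not match the positions of their rows. The peaks over the 5′ end were alike in extent, with 5225 bp in REH (chr20:30306831-30312055) and 5509 bp in 697 (chr20:30306933-30312441), and 5123 bases lay under both. The lines differed in the body, where 20011 bases were covered in REH and 38639 in 697. A peak of 13002 bp in 697 (chr20:30261924-30274925), longer than 99.8% of the 697 list, spanned a stretch where REH had separate peaks of 4239 bp and 4394 bp. A further 697 peak of 7417 bp (chr20:30280196-30287612) lay within the longest REH stretch without a peak, of 19251 bp, and was the longest peak at any of the 5 genes that had no peak of the other line over it. All 7 REH peaks overlapped a 697 peak, and 9 of the 14 peaks in 697 overlapped none in REH.

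MCL1 encodes an antiapoptotic protein with rapid turnover, and its body is short. It had 3 peaks in REH and 2 in 697, and each overlapped a peak of the other line. The peak over the 5′ end had 2916 bp in REH (chr1:150550114-150553029) and 4080 bp in 697 (chr1:150550129-150554208). Within the body the covered bases were almost equal, at 2887 in REH and 2872 in 697. The ratio over the window was 1.52, beside a tile median of 1.21, and the additional bases of 697 lay in the flanks. Upstream, the covered bases were 29 in REH and 1208 in 697, as the 697 peak extended past the 5′ end, and downstream they were 2587 and 4296. Downstream 697 had a peak of 8930 bp (chr1:150532367-150541296) where REH had peaks of 3996 bp and 1953 bp. The peaks of 8930 bp and 3996 bp reached only partly into the window. ADAMTSL4 is annotated next to MCL1 on GRCh38, and peaks of this flank cannot be assigned to one gene by position.

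BCL2L11 encodes BIM, a BH3-only protein, and was the least covered of the 5 windows, with 3 peaks in each line. The covered bases were 4715 in REH and 6628 in 697, a ratio of 1.41 beside a tile median of 1.29. Most of them lay at the 5′ end, where 697 had 1 peak of 5312 bp (chr2:111875663-111880974). REH had a peak of 3384 bp over the 5′ end (chr2:111877720-111881103) and another of 1144 bp upstream of it, and both overlapped the 697 peak. Inside the gene 697 had a peak of 1065 bp (chr2:111905727-111906791), between 27.7 and 28.8 kb from the 5′ end, and REH had a stretch of 49017 bp without a peak. Downstream of the gene the peaks of 187 bp in REH and 251 bp in 697 lay close to each other without overlapping. BCL2L11 was also the gene with the emptiest surroundings in REH. From 10 to 50 kb outside the body REH had no peak on either side, and 697 had 3 peaks upstream with 4272 covered bases and 1 downstream with 891.

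BBC3 encodes PUMA, a BH3-only protein induced by p53. It held 4 peaks and 4199 covered bases in REH, and 7 peaks and 10107 covered bases in 697. The ratio was 2.41, beside a tile median of 1.23. Neither line had a peak over the 5′ end of the window's gene body. The nearest peaks began 1.93 kb downstream of it in REH (chr19:47733438-47735073, 1636 bp) and 2.06 kb in 697 (chr19:47732568-47734942, 2375 bp), and 1505 bases lay under both. The annotated starts of BBC3 transcripts spread over 1567 bp on GRCh38, and the hg19 span used was 0.963 kb longer than the RefSeq gene. An annotated start of BBC3 may therefore lie under these peaks, which could not be checked here. Most of the difference lay outside the body. Covered bases were 3517 in REH and 4766 in 697 in the body, 0 and 1061 in the upstream flank, and 682 and 4280 in the downstream flank. Over the body alone the ratio was 1.36, and the 2-fold rule was not met. The upstream peaks of 697 had 979 bp (chr19:47744285-47745263) and 3384 bp (chr19:47746919-47750302), the latter reaching only partly into the window, and REH had none there. Downstream, a 697 peak of 4552 bp (chr19:47712817-47717368) lay over REH peaks of 2087 bp and 191 bp. The peaks of 4552 bp and 2087 bp reached only partly into the window. Also downstream, 697 peaks of 710 bp and 202 bp had no REH peak over them.

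At the 5′ ends the ratio of the peak lengths, 697 over REH, was 1.07 at BCL2, 1.05 at BCL2L1, 1.4 at MCL1, 1.57 at BCL2L11 and 1.45 at the nearest peak of BBC3. With peaks merged within 1000 bp, the peaks of BCL2L11 at the 5′ end were 5286 bp in REH and 5312 bp in 697. Each REH peak as called at these places lay to between 82.1% and 99.5% under the matching 697 peak. The covered bases per window ranged more widely, from 1.28 to 2.41.

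Of the 34 REH peaks at the 5 genes, 5 had no 697 peak over them, which is 14.7% (95% Wilson interval 6.45 to 30.1, counting error only), beside 35.9% of the whole REH list. They were 4 peaks at BCL2 and 1 at BCL2L11. Of the 48 peaks in 697, 24 had no REH peak over them, which is 50% (36.4 to 63.6), beside 61.1% of the whole 697 list. These were 9 at BCL2, 9 at BCL2L1, 4 at BBC3 and 2 at BCL2L11. A longer peak has more room to meet another one, and the peaks at these genes were longer than those of the lists, with medians of 1917 bp against 1060 bp in REH and 1308 bp against 871 bp in 697. By the stricter count, in which the peak's centre had to be covered in the other line, 9 of the 34 were unshared in REH (26.5%) and 30 of the 48 in 697 (62.5%), beside 44.9% and 68.4% of the lists.

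**Figure D3:**
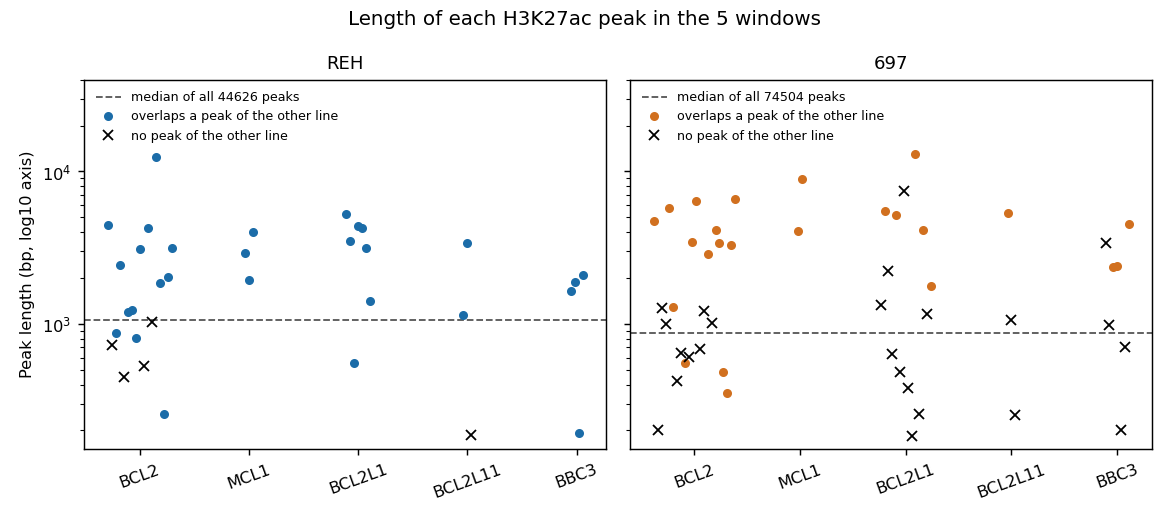
Each point is 1 H3K27ac peak at the gene named on the x axis, placed by its length in bp (log10 axis), for REH (left) and 697 (right). Filled circles overlap a peak of the other line, crosses do not, and the dashed line is the median of the line's whole list (1060 bp and 871 bp). The crosses in REH are at most 1025 bp long, and in 697 they reach 7417 bp at BCL2L1.

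At the 5 genes, peaks present in 1 line only were mostly short. Their median length was 532 bp in REH and 698 bp in 697, and that of the peaks overlapping the other line 2087 bp and 4094 bp. A short peak has less room to meet another one, and these medians were not computed for the whole lists. In 697, 9 of the 48 peaks were at least 5 kb long (18.8%), against 2.99% of its list, and in REH 2 of the 34 (5.88%), against 3.28%. Peaks under 500 bp made up 20.8% in 697 and 11.8% in REH, against 26.0% and 21.0% of the lists.

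The other genes of the family did not share one direction. Of 12 further members, whose hg19 windows were placed by hand to the nearest kb, 10 had a peak in each line, and BCL2A1, an antiapoptotic gene, and BOK, an effector, had none in either. Of these 10 genes 5 had more covered bases in 697 and 5 fewer, with a median ratio of 1.03, whereas 61.7% of tiles of similar width with peaks in both lines had more in 697, with a median ratio of 1.23. The 2-fold rule was met by 3 of the 12, all with more bases in 697, beside 66.3% of tiles of similar width with a peak in either line and 40.8% of those with a peak in both. Of the latter tiles 29.3% met it with more bases in 697. These were BCL2L10, an antiapoptotic gene with 286 bases in REH and 4151 in 697, and the BH3-only genes BIK, with 4135 and 10902, and BMF, with 11192 and 24485. The longest peaks of the 12 windows in 697 were at BMF (14233 bp) and BIK (4566 bp), and in REH at the BH3-only gene BID (8516 bp) and the effector BAX (5208 bp). At BID and BAX the ratios were 0.873 and 0.661. The 5 genes described above all had ratios over 1, with a median of 1.52. Medians in tiles of their widths lay between 1.21 and 1.34, and only BCL2 had a ratio below that of its own width. The 1.49 of the whole lists is a ratio of summed bases, not a median over windows.

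**Figure D4:**
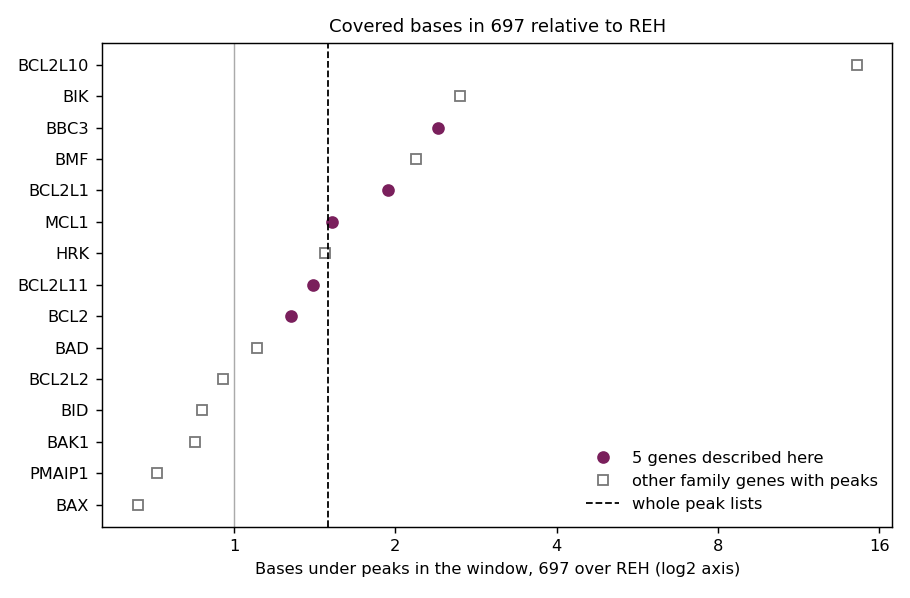
Points give the bases under H3K27ac peaks in the window of each gene in 697 divided by those in REH (log2 axis), for the 5 genes (filled circles) and the 10 further family genes with peaks in both lines (open squares). The grey line is a ratio of 1 and the dashed line the ratio of 1.49 of the whole peak lists. All 5 filled circles lie above 1, from 1.28 at BCL2 to 2.41 at BBC3.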

How the data were processed

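H3K27ac ChIP-seq was measured in REH and 697, with 1 ChIP and 1 input library per line. Per the methods, Bowtie was used for alignment to hg19 and MACS for peak calling. Per the file headers, the lists come from broad mode of MACS 2.1.0.20150731, run against a control library. These runs kept 1 tag per position and used q-values of 0.05 (strong regions) and 0.1 (broad regions). The MACS version in the methods is an older one, and the submitters' processing notes give Bowtie2 and MACS2. For each peak the authors deposited its position, the mean pileup signal, the fold enrichment as a linear ratio over background, and p-values and q-values on a −log10 scale. No tag counts per peak are given, so comparisons of the genes used position and length. The pileup, ratio, p and q columns were hardly correlated between the lines or with peak length, and whether each value belongs to the peak of its row could not be checked, so filters on p and q are given as alternatives only.

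Gene bodies were the hg19 spans of the 5 genes in kb. Covered bases were counted inside the window only, and an overlap of 1 bp or more made a peak shared. The 5′ end was taken from the strand in GENCODE v44. Spans of the 12 other family genes were set by hand to the nearest kb, not from an hg19 annotation. Against RefSeq on GRCh38 their lengths differed by at most 1.47 kb, except that the differences of BOK and HRK were -6.74 kb and -4.30 kb. Named were the 5 genes and, of the 12, those without a peak, those meeting the 2-fold rule and the 2 with the longest peak in each line.

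The genes and lists were chosen with earlier results of these data known. Counting bases inside the window and the tiles with a peak in both lines were chosen after the peaks had been seen. Interval functions were tested on simulated data. The work was done in Python 3.11.15 with matplotlib 3.10.9, pandas 2.3.3, scipy 1.17.1 and numpy 2.4.6. Alternatives were stricter thresholds on p, q and length, merged peaks, equal peak numbers, other flanks, folds and overlaps, and whole peaks.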

Additional observations from a re-analysis of the deposited data

How the results depend on the processing

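Among the covered-base ratios of the 5 genes under the alternatives, 35 of 41 moved by at most 1.5 times in the same direction. Ratios with 0 covered bases in a line were left out of the 41. This was so at a −log10(p) of 10 or more for BCL2, MCL1 and BCL2L11, which kept bases in REH only. BBC3 had 0 in both lines there. Keeping only peaks with a −log10(p) of 10 or more left 5 REH peaks and 1 peak of 697 at these genes. It turned BCL2L1 to 0.0585, gave 4 genes past the 2-fold rule, all with more bases in REH, and left 100% of the peaks of both lines unshared. The p and q columns may not match the positions of their rows, so what these filters select is uncertain. The ratio was 0.995 for BCL2 at a q-value of at most 5%, where BCL2L1 had 1.22, and 0.995 for MCL1 without flanks. The count of genes past the rule, 1 as reported, was 2 with peaks merged within 1000 bp, 0 without flanks, 3 at a fold of 1.5 and 0 at a fold of 3. With flanks of 50 kb the count was 1 but the gene was BCL2L11 (2.50), with BBC3 at 1.93. The unshared percent of 697 was 33.3% for peaks of at least 1000 bp and 36.4% for equal peak numbers by length. Neither whole-list percents nor tile shares were computed under these filters, flanks and folds. The counts and unshared percents of this paragraph therefore stand without a background. Counting whole peaks, an alternative added after seeing the data, left BBC3 as the gene past the rule (2.52). The causes were not tested. With 1 library per line no replicate could be left out. No paired analysis was possible because each line had 1 ChIP library and the result comes from no test.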

Other observations

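The columns of peak height and significance were hardly correlated between the lines. Across the 24932 pairs of peaks that overlapped each other and no further peak, Spearman's rho between the lines was 0.473 for length, and it was 0.0266 for −log10(p), 0.0345 for fold enrichment and 0.025 for pileup. Peaks are not independent replicates. Between neighbouring rows of a list the correlation of pileup was 0.619 in REH and 0.714 in 697, and that of length 0.0315 and 0.0451. The correlation of −log10(p) with the length of the peak in the same row was 0.0916 in REH and 0.0653 in 697.

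From 10 to 50 kb outside the gene bodies, 697 had more covered bases than REH on both sides of MCL1, BCL2L1, BCL2L11 and BBC3. Upstream of BCL2 the order was the other way, with 2182 bases in REH and 1863 in 697. Downstream of BCL2 REH had 9 peaks with 17637 bases and 697 had 6 peaks with 23006 bases, the most covered bases in these outer regions.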
